A study of Mus musculus with 18 samples.

Results

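The mir-181 family is a group of 4 related mouse microRNAs (miRNAs), mmu-mir-181a, mmu-mir-181b, mmu-mir-181c and mmu-mir-181d, written below without the species prefix. They were taken by name from a count table of 1006 miRNA precursor entries in 18 small RNA libraries, and all 4 entries were present. The libraries came from Baf3, an interleukin-3-dependent mouse pro-B cell line. All cells carried fluorescent reporters of altered miR-15a and miR-16, and all were transduced with a vector for Cas9 and 1 guide RNA and selected with puromycin. The control cells had a guide against Rag1, a gene with no role in miRNA processing, and the other groups had a guide against Safb together with Safb2 (group SAFB) or against Erh (group ERH), with 2 guides per genotype. Cells with a derepressed miR-15a reporter were sorted in the SAFB and ERH groups, and the sorted cells were regrown as polyclonal populations. How control cells were sorted is not given in the sources used here. Each of the 6 guide populations gave 3 libraries, 1 per labelled batch, so each genotype had 6 libraries from 2 edited populations. No time point or further treatment separates the groups. Small RNA libraries do not read mRNA, so the loss of Safb, Safb2 and Erh was not checked here.

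miRNAs are cut from a hairpin in a longer primary transcript by the Microprocessor, which contains DROSHA and DGCR8, and then from the freed hairpin by DICER. A hairpin that Microprocessor cuts poorly can be helped by a neighbouring hairpin on the same transcript, a process called cluster assistance, and SAFB proteins and ERH are known for their part in it. The mature strand pairs with target mRNAs mainly through its seed, bases 2 to 8. Members of the mir-181 family are known for roles in lymphocyte development, mir-181a above all for tuning antigen receptor signalling in thymocytes.

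The mature 5p strands of the family are shown first, because they show how close the entries are to each other. They were read from RefSeq on GRCm38.p6, 5′ to 3′, with the seed in capitals.
mmu-miR-181a-5p: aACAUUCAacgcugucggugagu
mmu-miR-181b-5p: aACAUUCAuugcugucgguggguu
mmu-miR-181c-5p: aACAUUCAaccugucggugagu
mmu-miR-181d-5p: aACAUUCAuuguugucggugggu
All 4 strands had the seed ACAUUCA, and no other mature miRNA among the 1679 of the reference sequences had it. Counted from the 5′ end of the mir-181a strand, mir-181b differed by A9U, C10U, A21G and 1 inserted base, whereas mir-181c differed from mir-181a by the loss of base 11 alone. mir-181d differed from mir-181b by C12U and the loss of base 23. By sequence the closest relatives were therefore mir-181a with mir-181c (1 change) and mir-181b with mir-181d (2 changes), whereas on the genome mir-181a lies beside mir-181b and mir-181c beside mir-181d. Whether reads that fit more than 1 entry were shared or dropped in counting is not given in the sources used here, so the split between close members is uncertain.

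The family has 6 hairpin genes at 3 loci of GRCm38. Mir181a-1 (chr1:137966455-137966541, plus strand) and Mir181b-1 (chr1:137966639-137966718, plus strand) lie 97 bases apart, within A430106G13Rik, a long noncoding RNA gene, where they overlap an exon, and within an intron of Gm4258. Mir181a-2 (chr2:38852735-38852810, plus strand) and Mir181b-2 (chr2:38853830-38853918, plus strand) lie 1019 bases apart, on the strand opposite to Nr6a1 and within the span of one of its introns. Mir181d (chr8:84178716-84178787, minus strand) and Mir181c (chr8:84178873-84178961, minus strand) lie 85 bases apart in an intron of Nanos3. The table has 1 entry each for mir-181a and mir-181b, with neither gene copy nor hairpin strand named, so the counts do not tell which locus a molecule came from.

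The hairpins of the mir-181a and mir-181b genes and of Mir181d are printed because the partners of a locus behaved differently in the results. Capitals mark the 5p strand, and the sequences are RefSeq's on GRCm38.p6; the hairpin of Mir181c is named only.
Mir181a-1: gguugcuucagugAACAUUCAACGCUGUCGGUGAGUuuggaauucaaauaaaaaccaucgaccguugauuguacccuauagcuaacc
Mir181b-1: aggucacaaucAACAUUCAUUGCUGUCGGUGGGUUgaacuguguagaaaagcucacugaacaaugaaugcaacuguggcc
Mir181a-2: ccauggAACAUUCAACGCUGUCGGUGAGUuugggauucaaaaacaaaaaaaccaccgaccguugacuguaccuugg
Mir181b-2: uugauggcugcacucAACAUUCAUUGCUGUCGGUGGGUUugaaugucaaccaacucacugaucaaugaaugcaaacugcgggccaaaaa
Mir181d: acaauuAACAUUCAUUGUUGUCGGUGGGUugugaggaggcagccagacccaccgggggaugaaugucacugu
The minimum free energy computed for the whole hairpin was -29.1 kcal/mol for Mir181a-1 and -28.8 for Mir181a-2. It was -31.9 kcal/mol for Mir181b-1, -33.2 for Mir181b-2 and -27.1 for Mir181d. The hairpins differ in length. Per base the energy was -0.334 for Mir181a-1, -0.379 for Mir181a-2, -0.399 for Mir181b-1, -0.373 for Mir181b-2 and -0.376 for Mir181d. Of 1005 hairpins, 52.3% (for Mir181b-1) to 77.0% (for Mir181a-1) were as stable or more per base, so these energies are a description only. The letters UGU, searched on the hairpin's own strand in the stretch between its mature strands, were found in Mir181b-1, Mir181b-2 and Mir181d and not in Mir181a-1 or Mir181a-2. Of 644 hairpins with both mature strands annotated, 31.5% held these letters there, so the match is a description only.

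The libraries held 2699323 to 4470073 miRNA counts, and 273 entries passed the filter on low counts and were tested. Levels are given as CPM, counts relative to a library size adjusted by trimmed means (TMM), and a call means an adjusted p under 0.05 in edgeR's quasi-likelihood test. Calls were common: 56.0% of tested entries in SAFB against control, 53.8% in ERH against control and 39.6% in ERH against SAFB. The median log2 fold change of all tested entries depended on the scaling. In ERH against control it was -0.061 with TMM, 0.24 with total counts and 0.23 with spike-in counts, and in SAFB it was 0.0083, 0.043 and -0.23. The share of calls that were higher moved accordingly, in ERH against control from 49.0% with TMM to 76.6% with total counts and 79.1% with spike-ins, and in SAFB from 54.9% to 43.1% with spike-ins. In ERH against SAFB it moved from 60.2% to 93.5% and 99.1%. Between the guides of 1 genotype, the measured background, calls were 0% in control and 0% in SAFB, with 7 and 10 entries at an unadjusted p under 0.05, and 0.366% (1 entry) in ERH, with 18 at an unadjusted p under 0.05. None of the 4 mir-181 entries was called between guides.

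mir-181a was the most abundant member in every genotype. Its level had a lowest, median and highest value of 2602, 3139.8 and 3605 CPM in control libraries, of 3971, 4539 and 5491 CPM in SAFB libraries and of 3434, 4001 and 4961 CPM in ERH libraries. Every SAFB library was above every control library, and the ERH libraries overlapped both other groups. The means were 3114 ± 453, 4662 ± 566 and 4119 ± 616 CPM (SD, n = 6 each). mir-181a rose by 0.58 on the log2 scale in SAFB (SE 0.10, edgeR adjusted p = 5.4e-05) and by 0.40 in ERH (SE 0.10, edgeR adjusted p = 0.0020). The knockouts did not differ detectably from each other, at -0.18 for ERH against SAFB (SE 0.10, edgeR adjusted p = 0.195), and the sign of that value turned with total-count scaling (0.085) and spike-in scaling (0.36).

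mir-181b, the neighbour of mir-181a at both loci, went the other way. Its level had a lowest, median and highest value of 1021, 1099 and 1270.2 CPM in control libraries, of 147, 189 and 259 CPM in SAFB libraries and of 651, 709.8 and 874 CPM in ERH libraries. The 3 groups did not overlap: control was highest, ERH intermediate and SAFB lowest. The means were 1131 ± 109, 192 ± 38.9 and 729.8 ± 87.0 CPM (SD, n = 6 each). mir-181b fell by 2.56 on the log2 scale in SAFB (SE 0.12, edgeR adjusted p = 6.6e-15), the 8th lowest fold change of the 273 entries. It fell by 0.63 in ERH (SE 0.11, edgeR adjusted p = 3.5e-05) and was 1.92 higher in ERH than in SAFB (SE 0.12, edgeR adjusted p = 6.6e-12). In bulk RNA of a polyclonal population, a lower level in every cell and fewer cells with the miRNA cannot be told apart. Of all tested entries, 36.6% had 6 knockout and 6 control libraries that did not overlap in SAFB, 37.4% in ERH and 20.5% between ERH and SAFB.

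**Figure D1:**
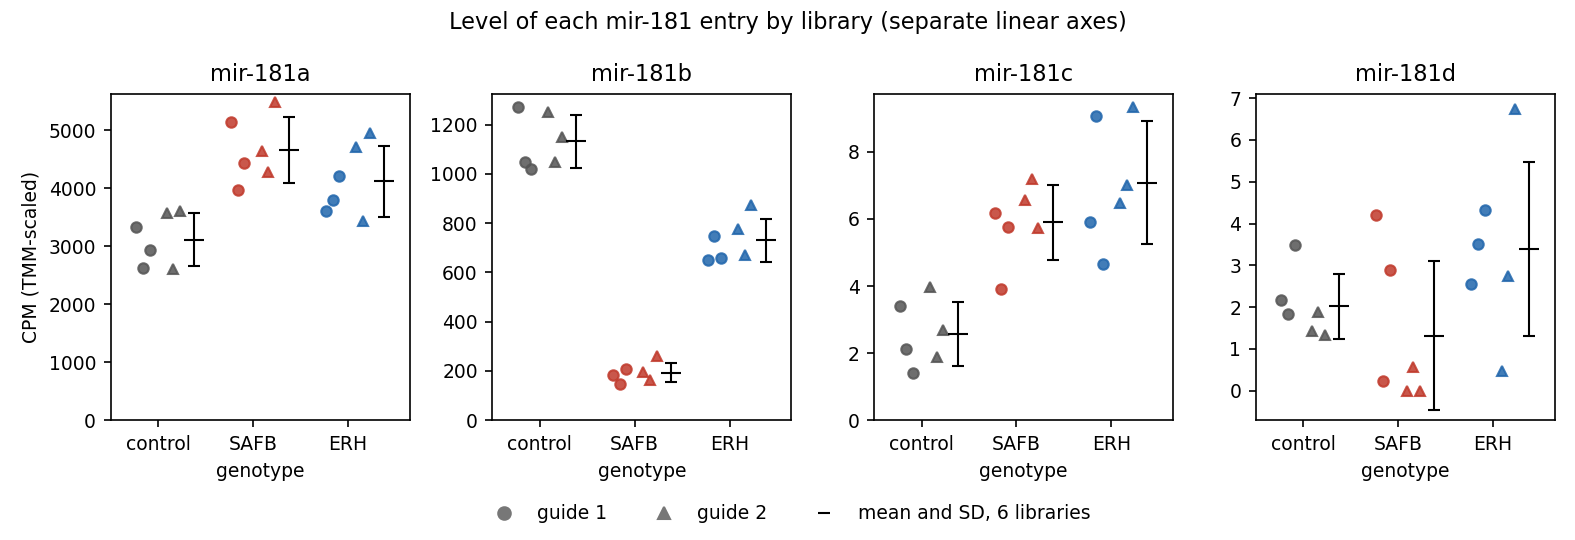
Level in CPM (TMM-scaled, linear axes that differ between panels) of the 4 mir-181 entries in each library, by genotype; circles are guide 1, triangles guide 2, and the bar gives the mean and SD of 6 libraries. mir-181b separates the 3 genotypes (means 1131, 192 and 729.8 CPM), whereas mir-181d is at 0 in 2 SAFB libraries.

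The calls of mir-181a in SAFB and of mir-181b in ERH depended on how libraries were scaled. Those of mir-181b in SAFB and of mir-181a in ERH did not, though the size of these changes varied. With spike-in scaling mir-181a was 0.33 higher in SAFB than in control (edgeR adjusted p = 0.237) and mir-181b 0.34 lower in ERH (edgeR adjusted p = 0.291). The fall of mir-181b in SAFB was then 2.80 on the log2 scale (edgeR adjusted p = 1.9e-27), and mir-181a in ERH was 0.69 higher (edgeR adjusted p = 0.0083). With scaling by total counts mir-181b was 0.33 lower in ERH (edgeR adjusted p = 0.022) and mir-181a 0.71 higher (edgeR adjusted p = 5.6e-06). mir-181a stayed above control and mir-181b below it in both knockouts under each scaling tried. Per spike-in count, the log2 level of mir-181a averaged 0.26 ± 0.46 among control, 0.62 ± 0.37 among SAFB and 0.94 ± 0.51 among ERH libraries, and that of mir-181b -1.19 ± 0.40, -4.00 ± 0.46 and -1.55 ± 0.50 (SD, n = 6 each). The spread per spike-in count was larger than per CPM, and with spike-in scaling mir-181a and mir-181b were called between guides, by 0.76 and 0.69 in control and 0.77 and 0.76 in ERH. Under that scaling 35.2% of all tested entries were called between the control guides, 40.3% between the ERH guides and 0% between the SAFB guides, and the median over all entries was 0.63 in control and 0.63 in ERH.

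Guide populations were also compared singly, because each genotype rests on 2 independently edited populations. mir-181b was called lower in all 4 pairings of a SAFB and a control population, by 2.43 to 2.69 on the log2 scale; these pairings called 35.9%, 39.2%, 44.3% and 44.7% of all tested entries. In the 4 pairings of an ERH and a control population it was called lower by 0.53 to 0.74, with 39.2%, 44.3%, 44.7% and 48.7% of all entries called. mir-181a was called higher in all 4 SAFB pairings, by 0.47 to 0.70, and in 3 of 4 ERH pairings; ERH guide 1 against control guide 2 gave 0.25 (edgeR adjusted p = 0.214). mir-181c was called higher in 3 of 4 SAFB pairings and in all 4 ERH pairings, by 1.20 to 1.70 in the latter. SAFB guide 1 against control guide 2 gave 0.88 (edgeR adjusted p = 0.097). mir-181c reached the filter's level in 1 library of each control population and in 3 of each knockout population. It was thus tested through the groups where it was high, and its pairings are a description only. mir-181d ran from -3.54 to 0.63 in the SAFB pairings, with 1 called lower, and from 0.42 to 1.14 in the ERH pairings, with none called. Within batches 1, 2 and 3 the SAFB difference of mir-181b was -2.73, -2.75 and -2.23, and its ERH difference -0.83, -0.57 and -0.51. For mir-181a these were 0.50, 0.66 and 0.60 in SAFB and 0.26, 0.46 and 0.49 in ERH.

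The ratio of mir-181b to mir-181a counts in the same library is independent of the scaling and compares the partners directly. mir-181b made up 24.2% to 28.7% of the counts of both in control libraries (median 26.8%), 3.43% to 4.50% in SAFB libraries (median 3.86%) and 13.5% to 16.5% in ERH libraries (median 15.1%). No library of any genotype reached the range of another. On the log2 scale this ratio averaged -1.45 ± 0.13 among control libraries, -4.61 ± 0.17 among SAFB libraries and -2.49 ± 0.13 among ERH libraries (SD, n = 6 each). Against control it changed by -3.16 in SAFB and -1.04 in ERH, and ERH was 2.12 above SAFB. Each had an exact two-sided permutation p of 0.0022, the smallest that 924 arrangements can give (adjusted p = 0.0087 over 12 ratio tests). The SAFB difference was -3.24, -3.41 and -2.83 within the batches, the ERH difference -1.08, -1.03 and -1.0, and the difference between the knockouts 2.16, 2.38 and 1.83. With populations in place of libraries, 2 against 2 allow no p below 0.333. The 4 entries together summed, in CPM, to 4250.0 ± 544 for control, 4861 ± 598 for SAFB and 4859 ± 690 for ERH libraries (SD, n = 6 each), ranges that overlapped. As a percent of all miRNA counts their ranges were 0.333% to 0.450% in control, 0.393% to 0.539% in SAFB and 0.480% to 0.704% in ERH, so on that scale every ERH library was above every control library.

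**Figure D2:**
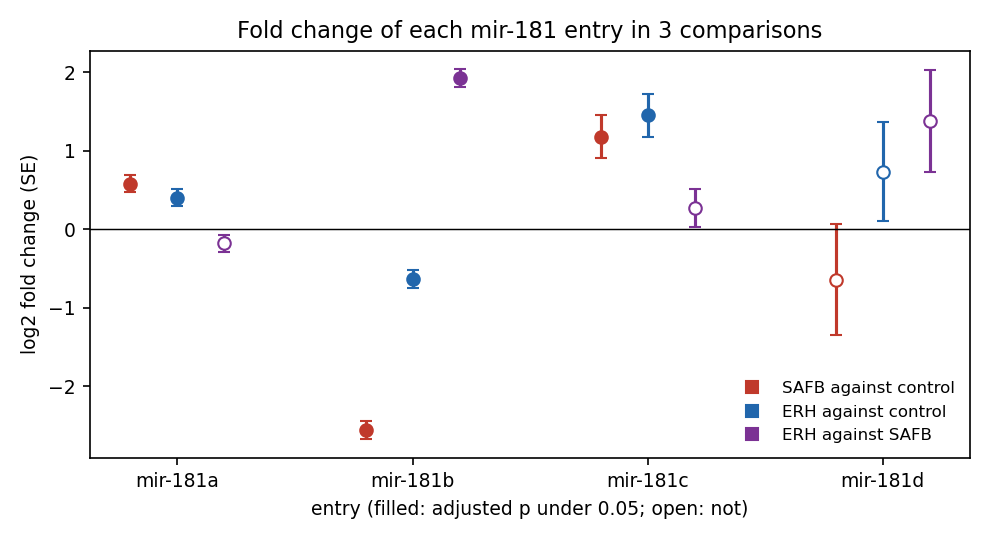
Log2 fold change of each mir-181 entry in 3 comparisons, with the SE; filled points had an edgeR adjusted p under 0.05. mir-181a and mir-181b lie on opposite sides of 0 in both knockouts (0.58 and -2.56 in SAFB, 0.40 and -0.63 in ERH).

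mir-181c and mir-181d, the partners on chromosome 8, were near the limit of detection, and their precision is that of a few counts. mir-181c had 11, 8 and 4 counts in the control guide 1 libraries and 11, 5 and 10 in those of guide 2. It had 22, 16 and 20 counts in SAFB guide 1, 24, 25 and 24 in SAFB guide 2, 23, 31 and 14 in ERH guide 1 and 27, 23 and 36 in ERH guide 2. All knockout libraries had more counts of mir-181c than any control library. On the CPM scale the means were 2.57 ± 0.97 for control, 5.90 ± 1.12 for SAFB and 7.08 ± 1.83 for ERH (SD, n = 6 each), with an overlap between control and SAFB and none between control and ERH. mir-181c rose by 1.18 on the log2 scale in SAFB (SE 0.27, edgeR adjusted p = 0.00088) and by 1.45 in ERH (SE 0.27, edgeR adjusted p = 7.6e-05), and ERH against SAFB gave 0.27 (SE 0.24, edgeR adjusted p = 0.412). mir-181c reached the filter's level in 2 control libraries and in all 12 knockout libraries, so it passed the filter through the groups where it was high. Without a filter its edgeR adjusted p was 0.0066 in SAFB and 0.00049 in ERH, and with spike-in scaling the SAFB difference was 0.97 (edgeR adjusted p = 0.065).

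mir-181d had 7, 7 and 10 counts in control guide 1, 4, 5 and 5 in control guide 2, 10, 12 and 13 in ERH guide 1 and 2, 9 and 26 in ERH guide 2. The SAFB populations split: guide 1 had 15, 1 and 10 counts and guide 2 had 0, 2 and 0. A count of 0 allows up to 3 counts, or 0.822 CPM in the guide 2 library of batch 1 and 0.717 CPM in that of batch 3. The means were 2.03 ± 0.78 CPM for control, 1.32 ± 1.79 for SAFB and 3.40 ± 2.09 for ERH (SD, n = 6 each), and the 3 groups overlapped.

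No comparison of genotypes called mir-181d. Its log2 fold change was -0.64 in SAFB (SE 0.71, edgeR adjusted p = 0.462) and 0.74 in ERH (SE 0.63, edgeR adjusted p = 0.349), and ERH against SAFB gave 1.38 (SE 0.65, edgeR adjusted p = 0.101). SAFB guide 2 against guide 1 gave -3.51 (SE 1.16, unadjusted p = 0.0068, edgeR adjusted p = 0.789). Without SAFB guide 1 the SAFB value was -3.10 (edgeR adjusted p = 0.014) and the value for ERH against SAFB 3.94 (edgeR adjusted p = 0.0025). Without SAFB guide 2 these were 0.37 (edgeR adjusted p = 0.678) and 0.47 (edgeR adjusted p = 0.60). Single libraries also decided the ERH against SAFB call: without SAFB guide 1 batch 1 the value was 2.20 (edgeR adjusted p = 0.015), and without ERH guide 2 batch 1 it was 1.61 (edgeR adjusted p = 0.0499). With spike-in scaling ERH against SAFB gave 1.78 (edgeR adjusted p = 0.0037). In limma with the population as a random block the SAFB value was -1.74 (adjusted p = 0.048) and that for ERH against SAFB 2.15 (adjusted p = 0.016). The correlation within populations, estimated over all entries, was negative there (-0.074). That block therefore did not allow for the split of mir-181d between the SAFB populations. mir-181d reached the filter's level in 1 control, 1 SAFB and 5 ERH libraries and so was tested through ERH.

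The order of the levels was mir-181a, mir-181b and then the other two in each genotype. Among all 1006 entries, ranked from the most abundant, mir-181a was 41st in control, 30th in SAFB and 32nd in ERH. mir-181b was 59th, 89th and 63rd. mir-181c was 225th, 196th and 198th, and mir-181d 240th, 291st and 228th. mir-181c and mir-181d did not differ beyond their spread in control. The mature strands are 22 to 24 bases long and are read whole, so no length scaling was made, but how well each strand is captured in a library is not known.

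Against its partner, mir-181d was lower in SAFB than in control, a call that several alternatives ended. With 1 added to each count, because 2 libraries had 0, the mir-181d to mir-181c log2 ratio averaged -0.29 ± 0.84 among control libraries, -2.82 ± 1.77 among SAFB libraries and -1.24 ± 1.08 among ERH libraries (SD, n = 6 each). The groups overlapped. The difference was -2.53 for SAFB (exact two-sided permutation p = 0.0173, adjusted p = 0.035) and -0.95 for ERH (adjusted p = 0.143, exact permutation). ERH against SAFB gave 1.58 (adjusted p = 0.143, exact permutation). The SAFB call was lost when batches were kept as blocks, with the difference still -2.53 (adjusted p = 0.079, exact permutation). Within batches 1, 2 and 3 that difference was -1.66, -3.02 and -2.92. The call was also lost in the exact permutation without control guide 1 batch 2 (-2.51, adjusted p = 0.061), control guide 1 batch 3 (-2.25, adjusted p = 0.065) or control guide 2 batch 2 (-2.47, adjusted p = 0.061). Without SAFB guide 2 the difference was -1.22 (adjusted p = 0.186, exact permutation), and without SAFB guide 1 it was -3.84 (adjusted p = 0.029, exact permutation).

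**Figure D3:**
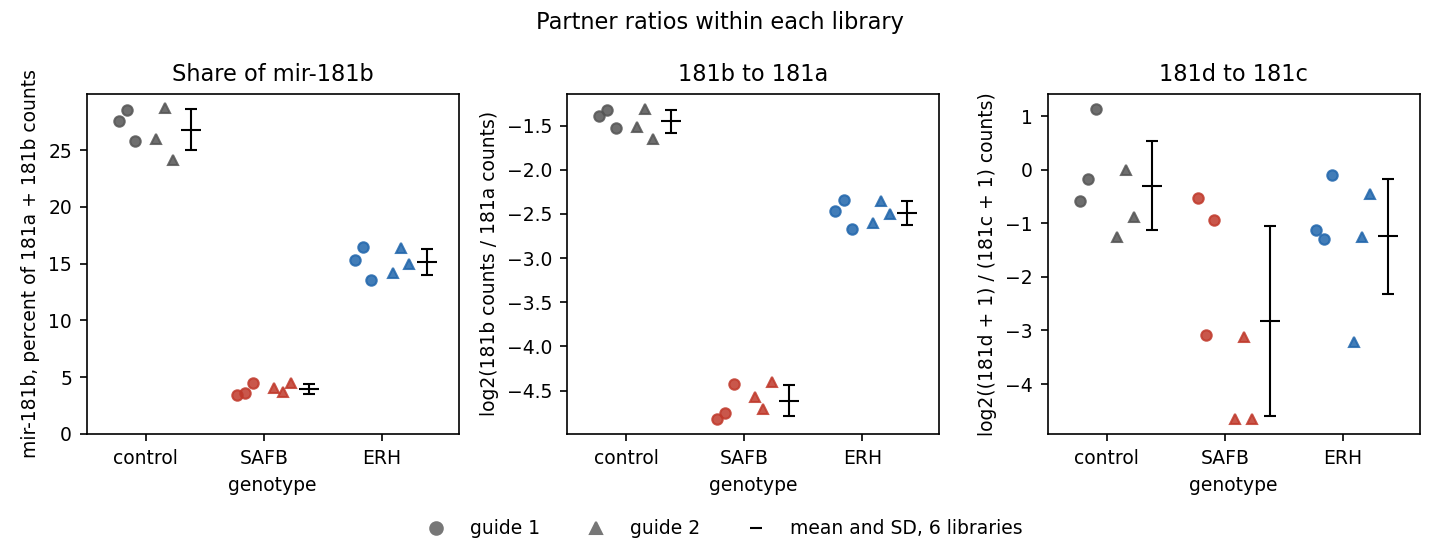
Partner ratios within each library by genotype: mir-181b as a percent of mir-181a plus mir-181b counts, the log2 ratio of mir-181b to mir-181a, and the log2 ratio of mir-181d to mir-181c with 1 added to each count. Circles are guide 1, triangles guide 2, bars the mean and SD of 6 libraries; the share of mir-181b lies at 24.2% to 28.7%, 3.43% to 4.50% and 13.5% to 16.5% without overlap, while the mir-181d to mir-181c ratios overlap.

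The members that are closest in sequence were compared in the same way. mir-181c counts were 0.081% ± 0.023 of mir-181a counts for control, 0.127% ± 0.026 for SAFB and 0.174% ± 0.047 for ERH (SD, n = 6 each). The log2 ratio was higher than in control by 0.67 in SAFB (exact two-sided permutation p = 0.0108, adjusted p = 0.026) and by 1.11 in ERH (exact two-sided permutation p = 0.0043, adjusted p = 0.013), with overlapping groups in each. ERH against SAFB gave 0.43 (adjusted p = 0.097, exact permutation), or 0.55 without ERH guide 1 batch 3 (adjusted p = 0.030, exact permutation). The SAFB call was lost without control guide 1 (0.57, adjusted p = 0.114), control guide 2 (0.78, adjusted p = 0.057), SAFB guide 1 (0.79, adjusted p = 0.082) or SAFB guide 2 (0.56, adjusted p = 0.122), and the ERH call without control guide 1 (adjusted p = 0.071), all by exact permutation of 3 against 6 libraries. Within batches 1, 2 and 3 the SAFB difference was 0.30, 0.75 and 0.98 and the ERH difference 0.50, 1.53 and 1.28.

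mir-181d counts were 0.183% ± 0.083 of mir-181b counts for control, 0.704% ± 0.944 for SAFB and 0.461% ± 0.246 for ERH (SD, n = 6 each). The log2 ratio differed from control by 1.18 in SAFB (adjusted p = 0.196, exact permutation) and by 1.06 in ERH (adjusted p = 0.097, exact permutation), and ERH against SAFB gave -0.12 (adjusted p = 0.911, exact permutation). None of these passed the threshold. The SAFB populations split, with a mean log2 ratio of -6.54 ± 1.51 for guide 1 and -9.04 ± 1.31 for guide 2 (SD, n = 3 each). The SAFB difference was -0.077 without SAFB guide 1, 2.43 without SAFB guide 2 (adjusted p = 0.057, exact permutation) and 0.69 without the guide 1 library of batch 1 alone. ERH against SAFB was likewise 1.14 without SAFB guide 1 and -1.37 without SAFB guide 2, so the sign of both values depended on the populations used. Without the ERH guide 2 library of batch 1 the ERH difference was 1.49 (adjusted p = 0.010, exact permutation).

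Other miRNAs that share a locus give the setting for the split of mir-181a and mir-181b. Of 32 pairs of neighbours listed for comparison, 26 had both partners tested. The gap between partners, the size of the difference of their log2 fold changes, had a median of 0.45 in SAFB, from 0.029 (mir-30c and mir-30e) to 4.91 (mir-191 and mir-425). The gap of mir-181a and mir-181b was 3.14, and 5 of the 26 pairs had one at least as large. In ERH the median was 0.19, from 0.040 (mir-23a and mir-27a) to 5.54 (mir-99a and let-7c), and 7 pairs reached the 1.04 of mir-181a and mir-181b. mir-99a averaged 1.39 CPM in control, under the filter's cutoff of 2.86 CPM, and passed the filter through the knockouts, where it was high. Its gaps are therefore a description only. Between ERH and SAFB the median was 0.27, the highest was 1.73 (mir-374b and mir-421), and none of the 26 reached the 2.10 of mir-181a and mir-181b. The gap of mir-181c and mir-181d was 1.82 in SAFB, 0.72 in ERH and 1.11 between them. Both entries passed the filter through groups where they were high, and mir-181d was called in no comparison of genotypes. The gaps of this pair are therefore a description only.

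A split with opposite calls, as mir-181a and mir-181b had in both knockouts with TMM scaling, was then also seen in 3 of the 26 pairs in SAFB and in 2 in ERH. In SAFB these were mir-15a with mir-16 (-3.61 and 0.21), mir-15b with mir-16 (-3.02 and 0.21) and mir-99a with let-7c (3.63 and -0.20). In ERH they were mir-192 with mir-194 (-1.41 and 0.44) and mir-99a with let-7c (5.13 and -0.41). In both knockouts the pair with mir-99a is a description only, since mir-99a passed the filter through the groups where it was high. Cells were sorted on miR-15a activity, so the values of mir-15a are a description, and the entry mir-16 stands in both of its pairs and sums 2 gene copies. The entries let-7c and mir-194 name no gene copy either, so their values may also mix loci. With total counts or RLE size factors mir-181a and mir-181b again had opposite calls in both knockouts. Of the other pairs 5 had them in SAFB with total counts and 4 with RLE size factors, mir-191 with mir-425 among them in each, and 2 had them in ERH with either; mir-99a with let-7c was not among these in ERH with total counts or in SAFB with RLE size factors. With spike-in scaling they had them in neither, since mir-181a was not called in SAFB nor mir-181b in ERH, and 0 of the pairs had them in SAFB and 1 in ERH. Both knockouts share the control libraries.

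**Figure D4:**
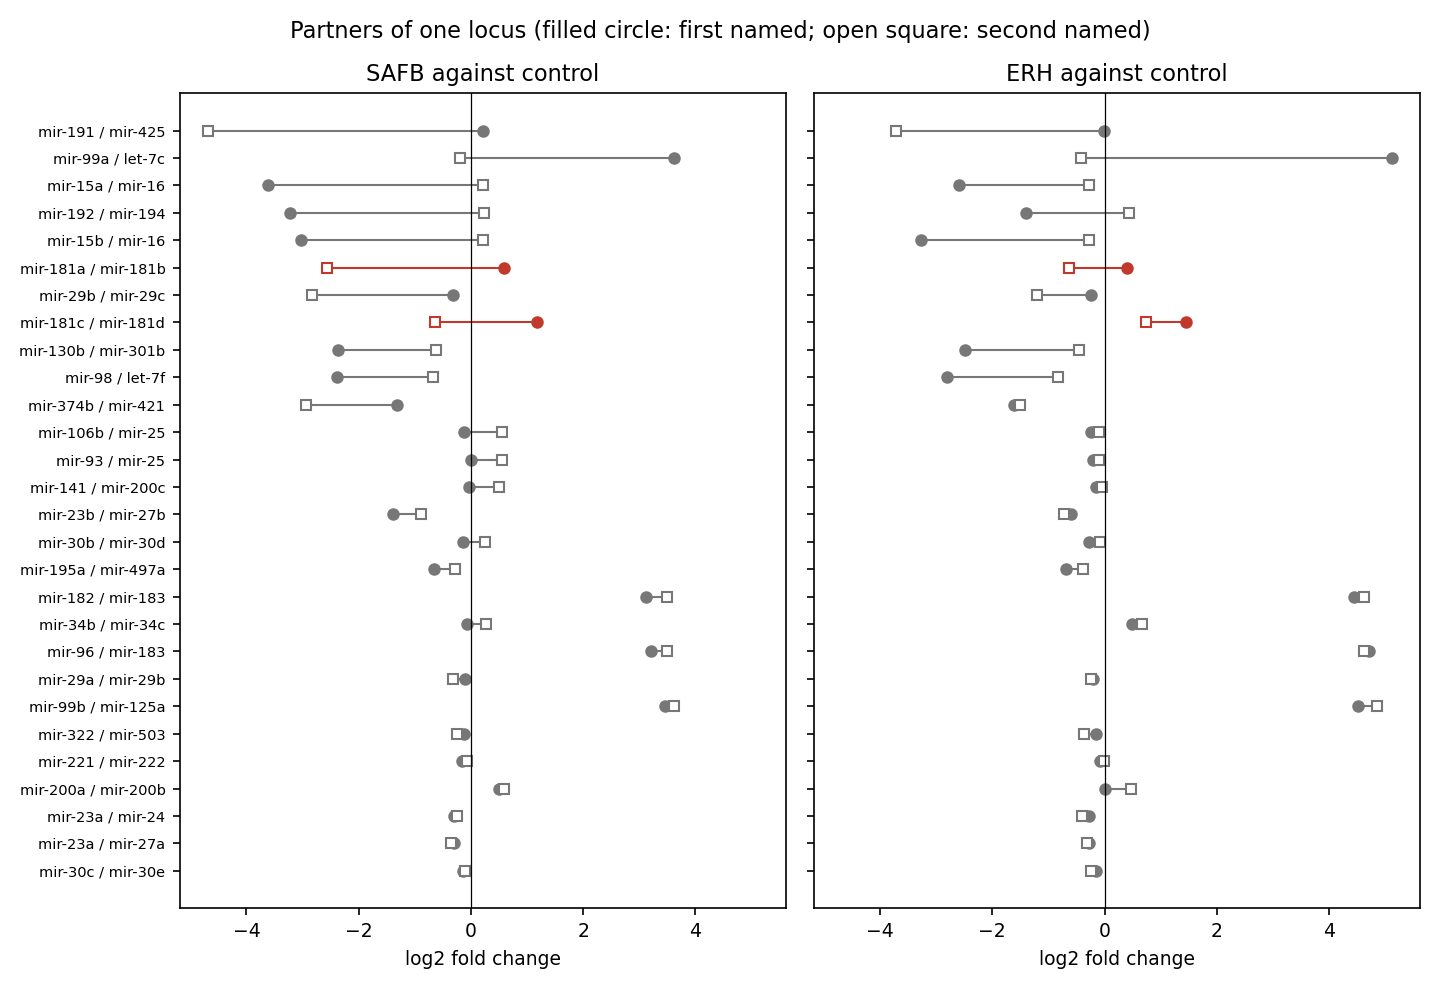
Log2 fold change of the partners of 26 listed miRNA pairs and of the 2 mir-181 pairs (red) against control, in SAFB and ERH; the filled circle is the partner named first and the open square the one named second. The line of mir-181a and mir-181b crosses 0 in both panels, with a gap of 3.14 in SAFB and 1.04 in ERH.

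The miRNAs whose pattern was most like each member over the 18 libraries were sought among 151 entries with a mean of at least 100 counts. Likeness was the root mean square difference of log2 CPM after centring on the control mean, so small values mean a close match. Nearest to mir-181a were mir-1839 (0.114), mir-26a (0.171) and mir-340 (0.180). Nearest to mir-181b were mir-29c (0.421), mir-421 (0.572) and mir-192 (0.697), with log2 fold changes of -2.83, -2.94 and -3.22 in SAFB and -1.21, -1.51 and -1.41 in ERH. The value of mir-181b in ERH, -0.63, was closer to 0 than each of these, a difference that was not tested. Nearest to mir-181c were mir-132 (0.396), mir-28a (0.470) and mir-30a (0.503), and nearest to mir-181d mir-450a (0.921), mir-339 (0.926) and mir-450b (0.948). mir-181c and mir-181d had means of 18.6 and 7.67 counts over the 18 libraries. Counting noise widens the difference at so few counts, so these values cannot show whether a close match exists.

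Other miRNAs known from blood and lymphoid cells were called lower more often than higher in both knockouts with TMM scaling. All 19 listed were in the table and 17 were tested. In SAFB 3 were called higher and 8 lower, against 30.8% higher and 25.3% lower among all tested entries, with a median log2 fold change of -0.17 (0.0083 for all). In ERH 2 were called higher and 11 lower, against 26.4% and 27.5%, with a median of -0.38 (-0.061 for all); with total-count scaling these counts were 4 and 4, and with spike-in scaling 2 and 1. In ERH against SAFB 5 were higher and 7 lower, against 23.8% and 15.8%, with a median of 0.054 (0.042 for all), and the counts were 9 and 2 with total-count scaling and 9 and 0 with spike-in scaling. Among the lower calls in both knockouts were mir-17, mir-18a, mir-20a and mir-92a of the mir-17-92 cluster, so these calls do not stand for separate loci. Their values were -0.74, -0.69, -0.74 and -0.78 in SAFB and -0.48, -1.14, -0.63 and -0.24 in ERH. With total counts and with spike-ins each was again called lower in SAFB, but in ERH only mir-18a was called under both. There mir-17 was called under neither (-0.17 and -0.18, edgeR adjusted p = 0.144 and 0.623). mir-20a in ERH was not called with spike-ins (-0.36, edgeR adjusted p = 0.232). The sign of mir-92a in ERH turned (0.071 and 0.040, edgeR adjusted p = 0.603 and 0.920). The list was not tested as a set. The most abundant miRNAs of the list in control were mir-142a and mir-21a. mir-142a, found in most blood cells, had a mean of 145243 CPM in control and 139106 CPM in SAFB, a log2 fold change of -0.062 (SE 0.058, edgeR adjusted p = 0.378), and was -0.23 in ERH (SE 0.058, edgeR adjusted p = 0.0016), a value whose sign turned with total counts and with spike-ins. mir-21a, a miRNA raised in many tumours, had a mean of 71092 CPM in control and 68003 CPM in SAFB, a log2 fold change of -0.064 (SE 0.071, edgeR adjusted p = 0.462), and fell by 0.45 in ERH (SE 0.071, edgeR adjusted p = 9.9e-06), or -0.14 with total counts (edgeR adjusted p = 0.157) and -0.18 with spike-ins (edgeR adjusted p = 0.598), neither called.

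Markers of cell types were checked beside these results. The 4 haematopoietic markers all had counts, with a summed level of 145080 to 171305 CPM in control, 149256 to 166330 in SAFB and 119540 to 153183 in ERH, most of it from mir-142a. mir-223, the myeloid miRNA, had a mean of 9611 CPM in control, 17414 in SAFB and 9214 in ERH. mir-150, a miRNA of mature lymphocytes, was low, with means of 19.3, 4.91 and 9.29 CPM, and fell by 1.96 in SAFB and 1.06 in ERH on the log2 scale (edgeR adjusted p = 1.2e-06 and 0.0010). mir-155 fell by 0.38 in ERH (edgeR adjusted p = 8.7e-05). The endothelial marker mir-126a, which is also in the blood cell list, lay between 4072 and 4586 CPM in control. Its range was 3112 to 3731 CPM in SAFB and 2920 to 3443 CPM in ERH. It fell by 0.31 in SAFB and 0.45 in ERH (edgeR adjusted p = 0.00012 and 1.0e-06). The erythroid markers mir-451a and mir-144 summed to at most 2.31 CPM in any library, the 3 striated muscle markers to at most 5.80 CPM with mir-206 at 0, and the 4 embryonic stem cell markers to at most 4.68 CPM with mir-291a and mir-294 at 0. The liver marker mir-122 lay between 4.68 and 34.2 CPM and rose by 1.33 in ERH (edgeR adjusted p = 0.0019). The 3 neuronal markers summed to 1826 to 3057 CPM, mostly from mir-128, which was 0.29 higher in SAFB and 0.26 higher in ERH (edgeR adjusted p = 0.0024 and 0.0055), with mir-9 at means of 9.06, 65.9 and 259.7 CPM in control, SAFB and ERH; mir-124, the defining one, was at 0 in control and had means of 0.228 CPM in SAFB and 0.515 CPM in ERH. The 6 epithelial markers summed to 145 to 224 CPM, with mir-200a, mir-200c and mir-429 higher in SAFB than in control by 0.50, 0.51 and 0.57 (edgeR adjusted p = 0.00041, 0.014 and 0.049). mir-141, the most abundant of them at a mean of 90.8 CPM in control, was at -0.036 in SAFB (edgeR adjusted p = 0.798) and mir-200b at 0.58 (edgeR adjusted p = 0.051), and mir-205 was too low to be tested. The 2 smooth muscle and fibroblast markers summed to 6.42 to 25.6 CPM, with mir-143 higher in SAFB by 0.56 (edgeR adjusted p = 0.028). With TMM scaling mir-223, mir-200a, mir-200c, mir-429 and mir-143 thus moved with the SAFB group, mir-155, mir-142a and mir-122 with the ERH group, and mir-9, mir-128, mir-150 and mir-126a with both knockouts, and their part in the mir-181 results was not tested. Several of these calls depended on the scaling. With total counts mir-142a and mir-155 were not called in ERH, at 0.073 and -0.070 (edgeR adjusted p = 0.214 and 0.450), and mir-126a was -0.14 (edgeR adjusted p = 0.035). With spike-in scaling the 3 were not called in ERH, at 0.047, -0.097 and -0.18 (edgeR adjusted p = 0.914, 0.840 and 0.623), so the sign of mir-142a turned under both. Of the marker calls against control given here, those of mir-223, mir-150, mir-126a and mir-9 in SAFB and of mir-122 and mir-9 in ERH were also made with spike-in scaling.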

How the data were processed

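Small RNA of 18 Baf3 libraries was sequenced after library preparation with a miRNA kit and addition of 4 synthetic spike-in RNAs to the total RNA, per the labels' protocols. The deposited values are raw read counts, whole numbers for 1006 miRNA precursor entries and 4 spike-ins. SAMtools is named in the submitters' processing notes; the aligner, the counting rules, the genome build, the miRNA annotation and the use of molecular identifiers are not given in the sources used here. Counts may therefore hold more than 1 read per molecule, and depth and limits from 0 counts cover counting error only. Spike-ins took 0.165% to 0.366% of counts and stayed out of library sizes and tests. Libraries of 1 population differed by more than sampling noise (chi-square per degree of freedom 27.5 to 157), so none was treated as a duplicate. Nothing says that batches were separate cultures, so p-values measure the spread between libraries, which may be technical.

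Entries were kept by filterByExpr (minimum count 10, by population), scaled by TMM and tested in edgeR 4.0.16 (R 4.3.3) by its quasi-likelihood method, with 1 mean per genotype over all 18 libraries and Benjamini-Hochberg adjustment over 273 entries. The standard error was derived from the F statistic. Guides were compared in a fit with 1 mean per population. Within-library log2 ratios of counts for 4 pairs of members were compared by exact two-sided permutation, 6 against 6 libraries, and adjusted over 12 tests. The plan had no pseudocount; since 2 libraries had 0 counts of mir-181d, 1 was added to both counts in ratios with mir-181d, and 0.5 or none was tried as an alternative chosen after seeing the data. Other alternatives were scaling by total counts, spike-ins or RLE size factors, DESeq2 1.42.0, limma 3.58.1 with population as a random block, other filters, batch as a block, and leaving out each library or population. The code was tested on simulated data.

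The labels give a batch number, and libraries with the same number were treated as paired only where batch was used as a block. Their deviations from the means of their populations had an average correlation of 0.094 within a batch (45 pairs, -0.332 to 0.639) and of -0.047 between batches (90 pairs), over 153 entries with a mean of at least 100 counts. The members, the lists of locus pairs, blood cell miRNAs and markers were chosen with earlier results of these data known. Named were the 4 members, the 3 miRNAs nearest in pattern to each, the pairs with the smallest and largest gap, and the most abundant of the blood cell list; other names, such as the pairs with opposite calls and mir-223, were picked once their values were known. The listed names mir-142 and mir-126 were matched to the table's mir-142a and mir-126a after values were seen; left unmatched, the blood cell list had 3 higher and 7 lower calls in SAFB and 2 and 9 in ERH. The other scalings of the markers, the blood cell list and the opposite calls of pairs were also chosen after seeing the data. Positions are from GENCODE M21 (GRCm38), which may not be the authors' build, and hairpins were folded with RNAfold 2.7.2.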

Additional observations from a re-analysis of the deposited data

Results flagged for a closer look

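The log2 ratio of mir-181d to mir-181b in ERH libraries had 1 library apart from the others: in ERH guide 2 batch 1, with 2 counts of mir-181d, the gap to the nearest library was 0.714 of the whole range of the 6. This was 1 of 24 groups examined, and chance gives about 1 in 20.

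The knockouts differed from each other in mir-181b, which was 1.92 higher in ERH than in SAFB on the log2 scale by the direct edgeR test, and in the log2 ratio of mir-181b to mir-181a, which was 2.12 higher by the exact permutation test, in all 6 ERH libraries against all 6 SAFB libraries. mir-181a, mir-181c and mir-181d were not called in that comparison.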

How the results depend on the processing

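The mir-181b to mir-181a ratio kept its direction and its call in all 3 comparisons under 26 alternatives each, from -3.21 to -3.11 in SAFB, -1.08 to -1.0 in ERH and 2.07 to 2.17 between them (adjusted p at most 0.048). mir-181b in SAFB and in ERH against SAFB and mir-181a in ERH kept their calls under all 33 alternatives. mir-181c in ERH was called under 32, since the filter at a mean of 100 counts removed mir-181c and mir-181d. As mir-181c was tested through the groups where it was high, its kept call is a description only. The number of calls in ERH against control fell to 91 with spike-in scaling. The batch number as a replicate block gave 155, 146 and 110 calls for SAFB, ERH and ERH against SAFB, and of the members' results it changed only the call of the mir-181d to mir-181c ratio in SAFB (-2.53, adjusted p = 0.079). That ratio ranged from -2.99 to -2.17 without single libraries, and was -2.11, -2.95 and -1.22 without control guide 1, control guide 2 and SAFB guide 2, each short of the threshold, and -3.84 without SAFB guide 1, past it; in ERH against SAFB it passed without SAFB guide 1 (2.89) and was 0.27 without SAFB guide 2. The mir-181c to mir-181a ratio in SAFB missed the threshold without control guide 1 (0.57), control guide 2 (0.78), SAFB guide 1 (0.79) or SAFB guide 2 (0.56), and in ERH without control guide 1 (1.00); in ERH against SAFB it ranged from 0.33 to 0.55 without single libraries. The mir-181d to mir-181b ratio in ERH ranged from 0.87 to 1.49 without single libraries and passed without ERH guide 2 (1.43). Leaving out a population leaves 3 libraries against 6, which limits the exact test. mir-181c and mir-181d rest on at most 36 counts in a library, which limits their precision.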
